A study of Mus musculus with 6 samples.

Results

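The metallothionein genes Mt1, Mt2 and Mt3 were followed through 6 Smart-seq2 RNA profiles of sorted dentate gyrus cells. They were taken by symbol from a table of 55367 genes, where all 3 were found, and all 3 passed the minimum of FPKM 1 in every library. FPKM is the number of sequenced fragments assigned to a gene, divided by how long its transcript is and by how many fragments the library had mapped. Metallothioneins are small cytoplasmic proteins that hold zinc and copper ions through clusters of cysteine thiols. Mt1 and Mt2 are made in most tissues and are switched on by zinc through the factor MTF-1, and also by glucocorticoid hormones and oxidative stress. Mt3 is the brain form, first described as a growth inhibitory factor, and responds weakly to metals. In the brain Mt1 and Mt2 are known mostly from astrocytes, and Mt3 from astrocytes and from neurons rich in vesicular zinc.

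All 6 libraries came from TRAP2;Ai9 mice, which the series' design text names as Fos-iCreERT2 with a Rosa26 Cre-dependent tdTomato reporter. In such mice an inducible Cre under the activity gene Fos leaves cells that were active at the time of induction permanently red, here during learned helplessness as the design text describes it. All animals had passed through learned helplessness, a stress procedure after which animals stop escaping, and were LH+. The NR group (3 libraries) then had no running and the Run group (3 libraries) had 28 days of voluntary running. The tissue was the hippocampal dentate gyrus, the sorted cells were labelled tdTomato+ neurons, and the labels place every library in 1 batch. The labels speak of single-cell sequencing, but whether a library is 1 cell or a pool, how many animals it came from, and their age, sex and inducing drug are not given in the sources used here. For that reason a p-value here reflects no more than how far these libraries lie apart, and part of that spread may be technical.

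The libraries held 5426 to 7355 genes with FPKM of at least 1, and their FPKM summed to between 473786 and 492021. Listed markers of astrocytes summed to more FPKM than those of granule neurons in every library. The sums come from different genes, so they do not compare amounts of the cell types. The summed FPKM of 12 astrocyte markers was 2995 to 4951 in NR libraries and 2832 to 5983 in Run, against 172 to 554 and 266 to 722 for 10 granule neuron markers. Rbfox3, the gene of the neuronal antigen NeuN, was listed at 0 in NR replicates 1 and 3 and had 49.7 FPKM in NR replicate 2 and 120, 5.62 and 18.2 in Run. Snap25, a synaptic vesicle fusion gene of the same list, had 172, 249 and 454 FPKM in NR libraries and 370.2, 390.5 and 169 in Run, so it was present in all 6 libraries. In NR replicate 1 Snap25 made up 172.2 of the 172.4 FPKM of that list. Prox1, of the same list, had 0.285, 17.8 and 0.417 FPKM in NR libraries and 3.65, 39.9 and 15.1 in Run. Rbfox3, Snap25 and Prox1 are named after their values were seen. Transcripts of astrocytes were thus present beside the metallothioneins in every library, and which cells the metallothionein RNA came from was not tested. Markers of other non-neuronal cells were present too: endothelial markers summed to 2117 to 5192 FPKM in NR and 2142 to 3260 in Run, oligodendrocyte markers to 257 to 1545 and 183 to 998, and microglial markers to 55.0 to 575 and 179 to 1188. In such libraries, fewer cells of a type and less RNA per cell cannot be told apart.

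Mouse metallothionein genes lie in 1 cluster on the plus strand of chromosome 8. In GENCODE M21, on the mm10 build that the submitters' processing notes name, Mt3 spans 94152607 to 94154146, Mt2 94172664 to 94173568 and Mt1 94179082 to 94180327. The gap between Mt2 and Mt1 is 5513 bases and that between Mt3 and Mt2 18517 bases. The fourth gene of the cluster, Mt4, a form known from stratified epithelia, was listed at 0 in all 6 libraries.

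**Figure D1:**
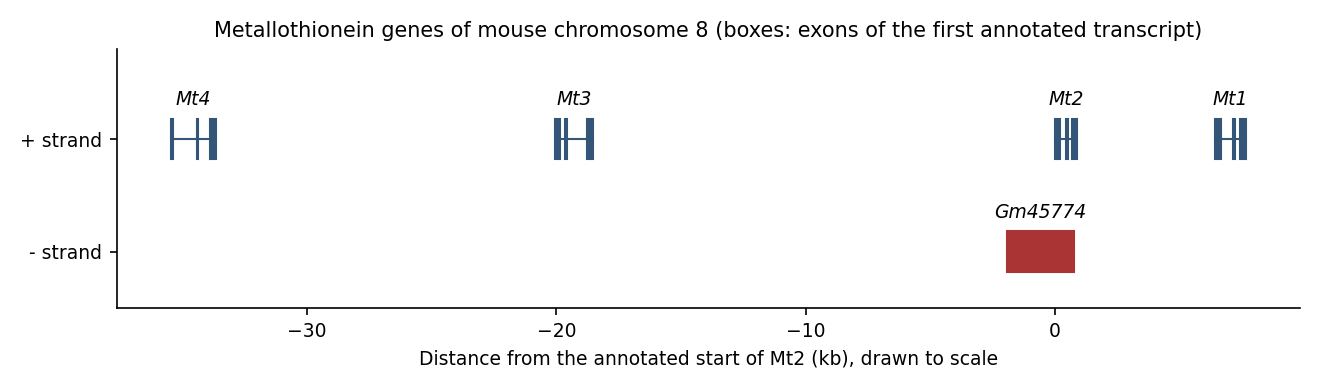
Exons of Mt4, Mt3, Mt2 and Mt1 on the plus strand and of the antisense gene Gm45774 on the minus strand, as distance in kb from the annotated start of Mt2. The single exon of Gm45774 lies across most of Mt2, and no annotated antisense gene is drawn over Mt1 or Mt3.

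The coding sequences are shown because they carry the trait that defines the family and because they show how far reads of the 3 genes can be told apart. They were read from the GENCODE M21 transcripts of 549 bases (Mt1), 511 bases (Mt2) and 536 bases (Mt3), each of 3 exons, without the stop codon, and capitals mark in-frame cysteine codons.
Mt1: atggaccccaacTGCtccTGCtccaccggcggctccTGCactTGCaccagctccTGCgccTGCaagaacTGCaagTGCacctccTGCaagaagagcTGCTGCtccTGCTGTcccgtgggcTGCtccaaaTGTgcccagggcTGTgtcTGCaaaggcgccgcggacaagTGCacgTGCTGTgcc
Mt2: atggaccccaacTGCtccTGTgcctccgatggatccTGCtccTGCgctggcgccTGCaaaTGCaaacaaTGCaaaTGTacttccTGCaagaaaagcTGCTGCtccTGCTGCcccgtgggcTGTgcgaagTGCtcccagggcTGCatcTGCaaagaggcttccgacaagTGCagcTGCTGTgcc
Mt3: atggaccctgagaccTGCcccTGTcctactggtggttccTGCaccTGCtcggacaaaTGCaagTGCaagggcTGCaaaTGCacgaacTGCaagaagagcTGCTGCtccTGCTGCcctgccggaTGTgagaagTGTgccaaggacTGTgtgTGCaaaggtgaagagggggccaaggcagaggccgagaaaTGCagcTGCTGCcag
Each of the 3 holds 20 cysteine codons, which are 32.8% of 61 codons in Mt1 and in Mt2 and 29.4% of 68 codons in Mt3. The longer Mt3 sequence has 21 bases that align to no base of Mt1 or Mt2. Over aligned bases Mt1 and Mt2 were 79.2% identical, Mt1 and Mt3 73.2%, and Mt2 and Mt3 74.9%.

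The longest stretch shared by the main transcripts was 20 bases for Mt1 and Mt2, 27 bases for Mt1 and Mt3 and 20 bases for Mt2 and Mt3. No stretch of 50 bases of any of the 3 main transcripts occurred on the same strand in a transcript of another annotated gene. On the opposite strand, 210 of 462 such stretches of Mt2 (45.5%) lay in Gm45774, and none of Mt1 or Mt3 lay in any gene. Gm45774 (chromosome 8, 94170748 to 94173412) is annotated as antisense, is a single exon of 2665 bases, and covers 355 of the 511 exonic bases of Mt2 (69.5%). Smart-seq2 does not mark the strand of the RNA, and no source used here says that strand was used in counting, so reads of Mt2 and Gm45774 cannot be told apart in their overlap. The value of Mt2 is uncertain to that extent.

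Regions upstream of the 3 genes are shown because Mt1 and Mt2 varied together across libraries, as described further on. They are the 250 bases before the RefSeq start on GRCm38.p6, plus strand, and capitals mark the core of the metal response element that MTF-1 binds, searched as TGCACNC and TGCGCNC on both strands.
Mt1, chr8:94178839-94179088: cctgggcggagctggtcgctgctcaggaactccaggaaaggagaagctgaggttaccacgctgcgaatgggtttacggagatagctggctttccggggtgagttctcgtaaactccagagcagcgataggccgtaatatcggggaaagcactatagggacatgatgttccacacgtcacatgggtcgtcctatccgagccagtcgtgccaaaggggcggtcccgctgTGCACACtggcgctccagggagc
Mt2, chr8:94172368-94172617: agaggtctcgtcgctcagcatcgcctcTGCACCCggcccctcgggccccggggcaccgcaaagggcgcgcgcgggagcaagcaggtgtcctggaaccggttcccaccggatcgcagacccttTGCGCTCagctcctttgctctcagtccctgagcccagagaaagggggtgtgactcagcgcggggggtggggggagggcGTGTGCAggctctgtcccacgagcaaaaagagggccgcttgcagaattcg
Mt3, chr8:94152357-94152606: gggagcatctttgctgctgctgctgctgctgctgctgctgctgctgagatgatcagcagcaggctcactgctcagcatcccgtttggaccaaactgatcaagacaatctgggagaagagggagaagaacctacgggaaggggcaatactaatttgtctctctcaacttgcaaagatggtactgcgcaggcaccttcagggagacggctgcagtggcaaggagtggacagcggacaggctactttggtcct
Counted over these bases and the first 50 bases of the transcript, Mt1 had 3 cores, Mt2 had 4 and Mt3 had 1. Among 32851 RefSeq windows of the same 300 bases, 25.7% held at least 1 core, 1.97% at least 3 and 0.517% at least 4. The Mt1 cores began at positions -23, 3 and 21 from the start. Those of Mt2 began at -223, -128, -50 and 5, the latter pair matching on the minus strand, and the core of Mt3 began at 28. The core of the antioxidant response element, searched as TGACNNNGC on both strands, occurred once in Mt2, at -79, in neither of the other windows, and in 12.4% of all windows. A match is a match of letters only, and whether these sites bear on the joint variation of Mt1 and Mt2 was not tested. The main GENCODE transcripts of Mt1, Mt2 and Mt3 hold 229, 184 and 193 bases before the coding sequence. Each window ended 50 bases after a RefSeq start, so bases nearer the coding sequence were not searched. The counts and absences hold for these windows only, and where transcription began in these cells was not tested.

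Mt1 was the most abundant of the 3 transcripts. It had 4342, 1453 and 2998 FPKM in NR replicates 1, 2 and 3 and 3016, 2484 and 3059 FPKM in Run replicates 1, 2 and 3. NR replicates 1 and 2 were the highest and lowest of all 6 libraries, and the 3 Run values lay between them. Among nuclear protein-coding genes Mt1 ranked 2nd to 12th in a library by FPKM. Its own share of all FPKM in a library was between 0.304% and 0.892%.

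Mt3 came next. Its values were 2666, 1234 and 1957 FPKM in NR libraries and 1878, 2180 and 945 FPKM in Run, in replicate order. Run replicate 3 was the lowest library and NR replicate 1 again the highest, so the Run values reached below the NR range and did not pass its top. Its rank among nuclear protein-coding genes ran from 6th to 31st.

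Mt2 was the least abundant, with 533, 208 and 338 FPKM in NR libraries and 464, 280 and 355 FPKM in Run. NR replicates 1 and 2 were again the extremes, and Run lay within their range. By rank Mt2 stood between place 83 and place 299 of the nuclear protein-coding genes. The order Mt1, Mt3, Mt2 by FPKM, a value per length, held in each of the 6 libraries. Across libraries the ranges of Mt1 (1453 to 4342) and Mt3 (945 to 2666) overlapped, whereas those of Mt3 and Mt2 (208 to 533) did not meet.

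**Figure D2:**
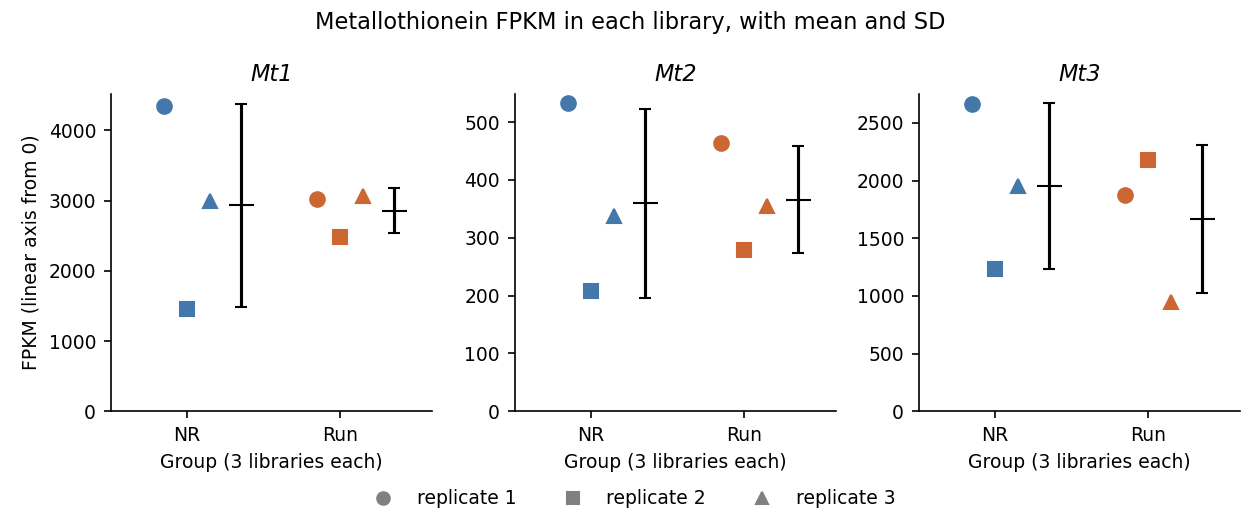
FPKM of Mt1, Mt2 and Mt3 (linear axes from 0) in each of 3 NR and 3 Run libraries, with the mean and SD of each group beside the points. In every panel the spread among NR libraries is wider than the distance between the group means.

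The comparison of Run with NR asked whether metallothionein RNA of the labelled cells differs after 28 days of running. No member passed the test. Means were 2931 ± 1446 FPKM in NR libraries and 2853 ± 320.3 in Run for Mt1, 360 ± 163 and 366 ± 92.5 for Mt2, and 1952 ± 716 and 1668 ± 644 for Mt3 (SD, n = 3 each). On the log2(FPKM + 1) scale, Run minus NR was 0.09 ± 0.38 (SE) for Mt1, with a 95% confidence interval from -0.81 to 1.00 and a limma adjusted p = 0.984. For Mt2 it was 0.10 ± 0.46, from -0.98 to 1.18 (limma adjusted p = 0.985). For Mt3 it was -0.24 ± 0.41, from -1.20 to 0.72 (limma adjusted p = 0.979).

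As folds, these intervals run from 0.569 to 2.00 for Mt1, from 0.507 to 2.26 for Mt2 and from 0.434 to 1.64 for Mt3. Changes within these bounds are compatible with the values of 3 libraries a group. The bounds are not limits of detection, and changes beyond them could also miss the adjusted threshold. Of all 6155 tested genes, 0 (0%) passed limma at an adjusted p under 0.05 and 304 (4.94%) had an unadjusted p under 0.05, of which 151 (2.45% of all tested) were higher and 153 (2.49%) lower in Run. The unadjusted limma p of Mt1, Mt2 and Mt3 was 0.816, 0.835 and 0.566, so 0 of 3 were called by either threshold. The NR and Run values overlapped for all 3 members, whereas they did not overlap for 8.95% of the tested genes. The median difference of the 3 members was 0.09, and that of all tested genes -0.03. The residual SD of the members on the log2 scale was 0.58, 0.54 and 0.60 for Mt1, Mt2 and Mt3. That was below the median of 0.76 over 693 tested genes with a mean of at least 100 FPKM, of which 33.5%, 30.3% and 35.9% had a smaller SD.

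Single libraries set the sign of these small differences. Without NR replicate 2, the lowest NR library for all 3 genes, Run minus NR was -0.35 for Mt1, -0.24 for Mt2 and -0.54 for Mt3. Without NR replicate 1, the highest, it was 0.44, 0.43 and 0.02. Without Run replicate 3 the value for Mt3 was 0.12, and without Run replicate 1 that for Mt2 was -0.09. The limma adjusted p stayed at 0.835 or above in each of these fits.

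**Figure D3:**
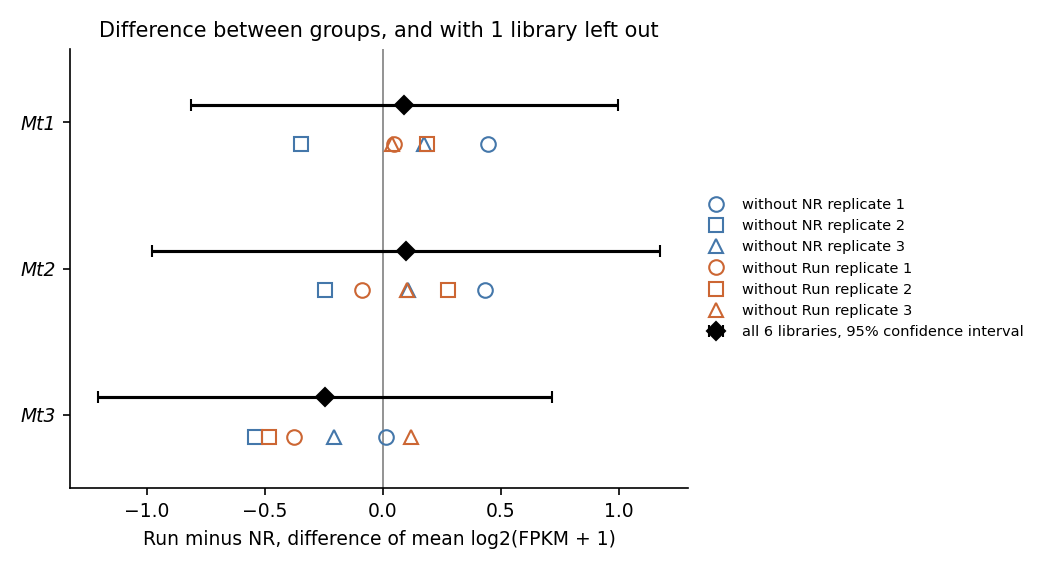
Run minus NR in mean log2(FPKM + 1) for the 3 genes: filled diamonds with 95% confidence intervals use all 6 libraries, and open symbols leave out the library named in the key. All 3 intervals include 0, and open symbols fall on both sides of 0 for each gene.

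Summed over the 3 genes, metallothionein FPKM was 7541, 2894 and 5293 in NR libraries and 5357, 4943 and 4359 in Run. It took 0.605% to 1.55% of a library's FPKM. The means were 5243 ± 2324 and 4887 ± 501 (SD, n = 3 each), and the difference of mean log2 values was -0.00021 (2-sided exact permutation p = 1; this design cannot go below 0.1). For Mt1 the highest NR library had 2.99 times the value of the lowest, against 1.23 times in Run. The same fold was 2.56 in NR against 1.66 in Run for Mt2, and 2.16 against 2.31 for Mt3. With 3 libraries a group, whether the spread differs was not tested.

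The library with the highest metallothionein sum, NR replicate 1, had the fewest genes with FPKM of at least 1 (5426), and the library with the lowest, NR replicate 2, had the most (7355). NR replicate 1 also had the lowest mean log2 level of the granule neuron list (0.78, with 7 of 10 markers listed at 0). NR replicate 2 had the next to highest (4.47, with 0 of 10 at 0). Run replicate 1, with the highest granule neuron level (4.78), had a metallothionein sum of 5357 FPKM, above the median. The part of gene number and cell content in the metallothionein values was not tested.

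Mt1 and Mt2 varied together from library to library. Over the 6 libraries the correlation of their log2 levels was r = 0.930 (exact permutation p = 0.00417, adjusted p = 0.0313 over a family of 9 correlations) and rho = 0.943 (exact permutation p = 0.0167, adjusted p = 0.15). So Pearson's r passed after adjustment and Spearman's rho did not. Without the 2 libraries farthest from the median, NR replicates 1 and 2, r was 0.739 over 4 libraries. Leaving out 1 library at a time gave r from 0.865 to 0.975.

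The ratio of Mt1 to Mt2 was accordingly steady. It was 8.15, 6.99 and 8.87 in NR libraries and 6.51, 8.89 and 8.62 in Run, a range of 1.37 times, while Mt1 itself ranged over 2.99 times. Its mean was 8.0 ± 0.951 in NR libraries and 8.0 ± 1.30 in Run (SD, n = 3 each; exact permutation p = 1). The points share their libraries, so any factor that scales a whole library would move both genes. The r of Mt1 with Mt2 was 0.928 after rescaling libraries to 1 total and 0.880 after quantile normalization. The part of such factors was not tested.

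Mt3 followed the other 2 less closely. Its r was 0.494 with Mt1 (exact permutation p = 0.311, adjusted p = 0.445; rho = 0.2, p = 0.714) and 0.482 with Mt2 (exact permutation p = 0.328, adjusted p = 0.445; rho = 0.314, p = 0.564). Without NR replicate 2 and Run replicate 3, the 2 farthest from the median of Mt3, the values over 4 libraries were r = 0.695 with Mt1 and 0.381 with Mt2. Run replicate 3 decided the value with Mt1, since without it r was 0.926 (exact permutation p = 0.0667). In that library Mt3 was at its lowest while Mt1 was the next to highest of all 6.

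**Figure D4:**
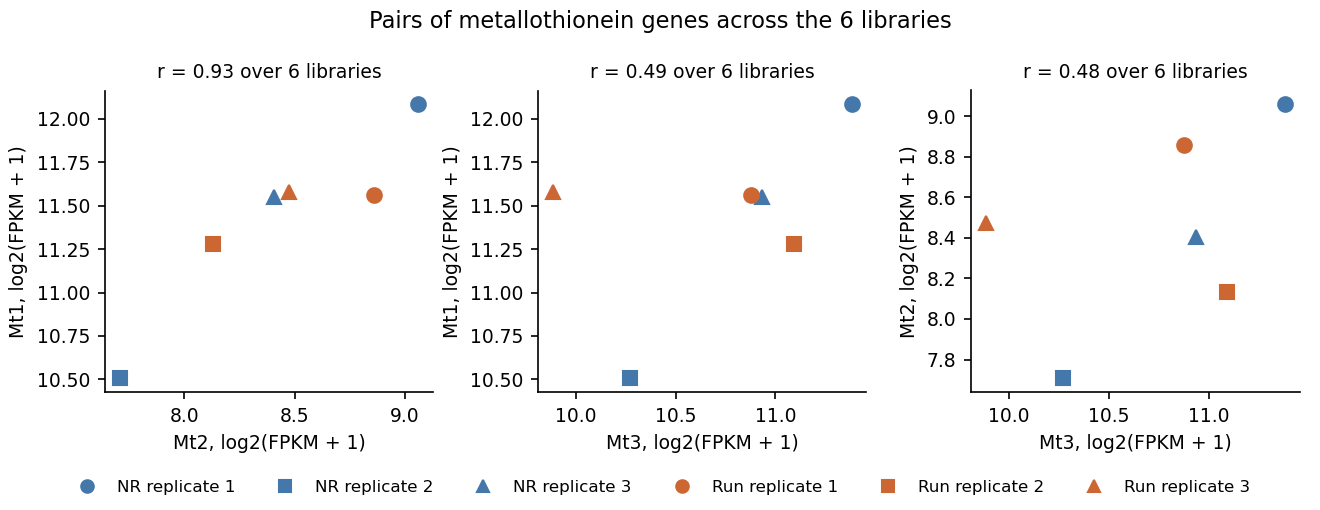
log2(FPKM + 1) of each pair of metallothionein genes, 1 point per library, coloured by group (NR blue, Run orange) and shaped by replicate. Mt1 and Mt2 follow 1 line (r = 0.93), while Run replicate 3 falls away to low Mt3 in the other panels (r = 0.49 and 0.48).

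Ratios to Mt3 showed the same departure. Mt1 over Mt3 was 1.63, 1.18 and 1.53 in NR libraries and 1.61, 1.14 and 3.24 in Run, so 5 libraries lay between 1.14 and 1.63 and Run replicate 3 stood at 3.24. Mt2 over Mt3 was 0.200, 0.169 and 0.173 in NR libraries and 0.247, 0.128 and 0.376 in Run. The differences in mean log2 ratio were 0.34 for both (exact permutation p = 0.7 for Mt1 over Mt3 and p = 0.6 for Mt2 over Mt3). Without Run replicate 3 they were -0.08 and -0.02.

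Gm45774, the antisense gene across Mt2, had 217, 41.1 and 86.4 FPKM in NR libraries and 117, 56.4 and 142 FPKM in Run. NR replicates 1 and 2 were its highest and lowest libraries, as for Mt2. Multiplied by exon length, its FPKM came to 1.03 to 2.12 times that of Mt2, so the deposited values assign more to it than to Mt2 before division by length. Adding its length-weighted FPKM to Mt2, a step chosen after its values were seen, gave 1664, 422 and 789 FPKM in NR libraries and 1075, 574 and 1094 FPKM in Run. Mt1 then stood at 2.61 to 4.33 times this sum in place of 6.51 to 8.89 times Mt2, with r = 0.936 between the genes (exact permutation p = 0.00139). This sum is an extreme case, since only 13.3% of the exon bases of Gm45774 overlap exons of Mt2 and the rest of that gene lies outside them. The correlation was similar either way.

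Genes that are known to respond to glucocorticoids were set beside the members, since Mt1 and Mt2 are among the classic hormone-induced genes. The list held 16 genes, of which 7 reached FPKM 1 in every library and 11 were tested. Its mean log2 level was 4.04, 2.81 and 3.81 in NR libraries and 4.27, 3.55 and 3.71 in Run, so NR replicate 2 was lowest here too. Run replicate 1 was highest by this level, with 2 of 16 genes listed at 0. By summed FPKM it had 820, above only NR replicate 2 (428), where Run replicate 3 had 1530. Against the mean log2 level Mt2 had r = 0.929 (exact permutation p = 0.00694, adjusted p = 0.0313; rho = 0.886, p = 0.0333, adjusted p = 0.15). Mt1 had r = 0.879 (exact permutation p = 0.0389, adjusted p = 0.117; rho = 0.714, p = 0.136). Mt3 had r = 0.483 (exact permutation p = 0.346, adjusted p = 0.445; rho = 0.314, p = 0.564).

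Both high values depended on which genes and libraries were counted. Without NR replicate 2 and Run replicate 1, the 2 farthest from the median of the list, r was 0.951 for Mt2 and 0.965 for Mt1 over 4 libraries. Without NR replicate 2 alone it was 0.861 for Mt2 (exact permutation p = 0.075) and 0.520 for Mt1 (p = 0.333). Over only the 7 genes at FPKM 1 or more in all 6 libraries, a set chosen after the values were seen, r was 0.472 for Mt2 (exact permutation p = 0.342) and 0.725 for Mt1 (p = 0.144). Ddit4, a stress-induced inhibitor of mTOR signalling that is named after its values were seen, had the highest r with Mt2 among those 7 (0.802), and with Mt1 (0.756).

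Between the groups no gene of the glucocorticoid list passed limma. Of 11 tested, 7 had positive and 4 negative differences, with a median of 0.51. Nfkbia, an inhibitor of NF-kappaB, had 217, 132 and 266 FPKM in NR libraries and 187, 334 and 539 in Run. Dusp1, a phosphatase of MAP kinases, had 297, 109 and 233 in NR libraries and 153, 354 and 401 in Run. Tsc22d3, which encodes the glucocorticoid-induced leucine zipper, had 134, 39.5 and 147 in NR libraries and 194, 320 and 142 in Run. Their differences were 0.71 ± 0.53, 0.51 ± 0.59 and 1.16 ± 0.68 (SE), each with a limma adjusted p = 0.978. NR replicate 2 was the lowest library for each of these 3 genes. Groups did not overlap for 1 of the 11 tested genes, a share near the 8.95% of all tested genes. That gene, Errfi1, a feedback inhibitor of EGF receptor signalling, is named after its values were seen. It had 71.0, 19.8 and 40.3 FPKM in NR libraries and 11.9, 4.85 and 0 in Run, a difference of -3.23 ± 1.37 (SE; limma unadjusted p = 0.0512, adjusted p = 0.978).

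The astrocyte list, taken whole, gave lower values of r than the whole glucocorticoid list. Its mean log2 level was 6.77, 6.90 and 7.27 in NR libraries and 6.21, 7.35 and 6.37 in Run, with r = -0.229 for Mt1 (exact permutation p = 0.735, adjusted p = 0.735; rho = -0.6, p = 0.242), -0.477 for Mt2 (exact permutation p = 0.34, adjusted p = 0.445; rho = -0.657, p = 0.175) and 0.395 for Mt3 (exact permutation p = 0.429, adjusted p = 0.483; rho = 0.429, p = 0.419). Without Run replicates 1 and 2, the farthest from its median, these were -0.157, -0.191 and 0.548 over 4 libraries. A further set, chosen after the values were seen, held only the 9 markers at FPKM 1 or more in all 6 libraries. Over these 9, r was -0.0073 for Mt1, -0.246 for Mt2 and 0.585 for Mt3 (exact permutation p = 0.992, 0.617 and 0.2125). The library with the lowest Mt1 and Mt2, NR replicate 2, had the third highest astrocyte level by mean log2 (6.90) but the second lowest by summed FPKM (2995, where the libraries ran from 2832 to 5983), and the lowest Aldoc. The part of astrocyte content in the metallothionein values was not tested. None of the 12 markers was listed at 0 except S100b, named for that reason, in NR replicate 1.

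Single astrocyte markers differed among themselves. Aldoc, the brain aldolase of astrocytes, had 2655, 1028 and 1765 FPKM in NR libraries and 1903, 2580 and 1255 in Run, and its r over the 6 libraries was 0.899 with Mt3, 0.673 with Mt1 and 0.593 with Mt2. Its 2 lowest libraries, NR replicate 2 and Run replicate 3, were also those of Mt3. Gfap, the intermediate filament, had 987, 555 and 1055 in NR libraries and 440, 1260 and 755 in Run, with r = 0.434 for Mt3. Ntsr2, a neurotensin receptor, had 216, 439 and 556 in NR libraries and 253, 621 and 112 in Run, with r = 0.442 for Mt3 and -0.450 for Mt1.

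**Figure D5:**
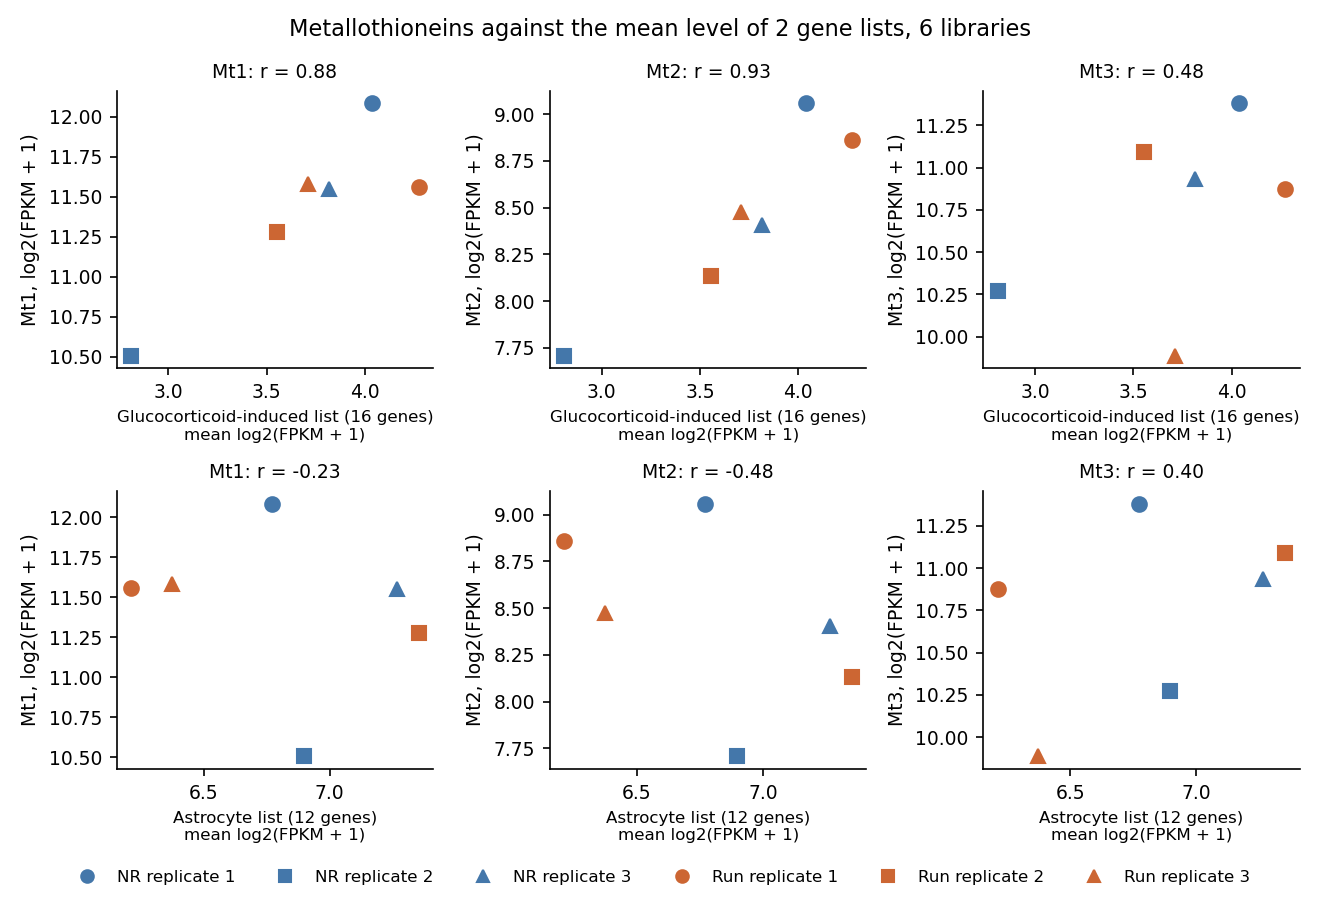
log2(FPKM + 1) of each metallothionein against the mean log2 level of the glucocorticoid-induced list (top row) and the astrocyte list (bottom row), 1 point per library. In the top row Mt1 and Mt2 lie along a rising line that NR replicate 2 extends at its lower end (r = 0.88 and 0.93), and no such line appears in the bottom row.

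By profile over the 6 libraries, the genes most like each member were sought among the 1751 genes that reached FPKM 1 in every library. The measure was Pearson's r of log2(FPKM + 1), given as a description over 6 points that are the same libraries for every gene. At r of 0.9 or more there were 21 genes for Mt1, 16 for Mt2 and 7 for Mt3. Mt2 was the 10th most like gene for Mt1, and Mt1 the 6th most like for Mt2. By contrast, Mt3 was in place 328 for Mt1 and 396 for Mt2.

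Closest to Mt1 were Csdc2 (r = 0.976), a cold-shock domain gene, Tceal3 (0.974), Gm19246 (0.960), a processed pseudogene, Btg2 (0.953), an antiproliferative gene that cells switch on after stimulation, and Akr7a5 (0.949), an aldo-keto reductase gene. Csdc2 ranged from 1.72 FPKM in NR replicate 2 to 294 in NR replicate 1, far more steeply than Mt1. Btg2 had 400.3, 15.9 and 334 FPKM in NR libraries and 254, 106 and 166 in Run. All 5 were at their lowest in NR replicate 2 and at their highest in NR replicate 1.

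For Mt2 the closest were Bzw1 (r = 0.997), which acts in translation initiation, Tceal3 (0.934), the actin filament gene Tpm1 (0.932), the overlapping antisense gene Gm45774 (0.931) and the processed pseudogene Gm6900 (0.930). Bzw1 had 141, 26.0 and 61.6 FPKM in NR libraries and 123, 43.5 and 67.7 in Run, the same order of libraries as Mt2. For Mt3 they were Smim20 (0.983), a small protein of cytochrome c oxidase assembly, Cops6 (0.958), a subunit of the COP9 signalosome, Praf2 (0.937), the splicing gene Puf60 (0.926) and Ndufb7 (0.914), a subunit of respiratory complex I. Smim20 had 179, 41.3 and 72.7 FPKM in NR libraries and 97.9, 129 and 22.6 in Run, with the lowest value in Run replicate 3 as for Mt3.

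Other genes of metallothionein regulation, metal handling and thiol redox were described by 6 lists with 67 genes, Mt4 among them, of which 34 were tested. No gene passed the adjusted limma threshold. Atox1, described further on, was the 1 gene with an unadjusted p under 0.05 and the 1 gene whose groups did not overlap, or 2.94% of the 34, against 4.94% and 8.95% of all tested genes. Differences were positive for 15 and negative for 19 of the 34, with a median of -0.10. Mtf1, the zinc-sensing factor that switches on Mt1 and Mt2, had 4.50, 0.945 and 0 FPKM in NR libraries and 0.0624, 0.000411 and 0 in Run, and was too low to be tested. Of the 9 regulators 7 were tested, 3 with positive and 4 with negative differences (median -0.16). The most abundant were Nfe2l2, the oxidative stress factor (34.8, 0 and 37.7 in NR libraries, 0.0289, 37.2 and 24.0 in Run), Usf1, an E-box factor (46.7, 0 and 15.2 in NR libraries, 17.6, 0 and 52.0 in Run), and Stat3 of cytokine signalling (22.7, 16 and 33.8 in NR libraries, 23.2, 0.0156 and 16.4 in Run). Nr3c1, the glucocorticoid receptor, had 23.3, 5.52 and 0.00662 in NR libraries and 13.3, 16.7 and 16.6 in Run, a gene outside the rule for naming and chosen after its values were seen.

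Zinc transporters were listed unevenly across libraries. Of 10 zinc exporters of the Slc30 family 2 were tested (median -0.95) and 3 were listed at 0 in every library. Slc30a3, which fills synaptic vesicles with zinc and is known from granule neurons, had 0, 50.8 and 0 FPKM in NR libraries and 9.75, 0 and 10.6 in Run. Slc30a6 had 59.1 in NR replicate 3 and at most 0.0203 elsewhere. Slc30a9 had 23.6, 1.86 and 15.1 in NR libraries and 1.91, 0.00700 and 2.05 in Run (-2.33 ± 1.23 SE, limma adjusted p = 0.978).

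Of 14 importers of the Slc39 family 3 were tested (median 1.12) and 4 were listed at 0 in every library. Slc39a1 was the 1 gene of that family that reached FPKM 1 in every library, at 83.0, 14.2 and 47.2 in NR libraries and 64.0, 94.6 and 100.4 in Run. Slc39a12, known from astrocytes, had 0.0132, 101 and 47.5 in NR libraries and 0.0657, 103 and 32.3 in Run. Slc39a6 reached 35.9 in NR replicate 2 and 44.8 in Run replicate 3, and stayed at 0.0363 or below in the others.

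Copper handling genes were better covered, with 8 of 15 tested, 4 positive and 4 negative (median 0.01). Sod1, the copper-zinc superoxide dismutase, had 921, 412 and 467 FPKM in NR libraries and 935, 660.4 and 902 in Run (0.55 ± 0.38 SE, limma adjusted p = 0.978). Atox1, the chaperone that carries copper to its pumps, had 417, 176 and 166 in NR libraries and 62.7, 141 and 28.8 in Run. All 3 NR values lay above all 3 Run values, as they did or the reverse for 8.95% of all tested genes, with a difference of -1.84 ± 0.75 (SE) and a limma adjusted p = 0.965. Prnp, the copper-binding prion protein, had 441, 215 and 56.4 in NR libraries and 108, 467 and 116 in Run.

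Of 18 thiol redox genes 8 reached FPKM 1 in every library and 14 were tested, 5 with positive and 9 with negative differences (median -0.13). The 3 most abundant had lower means than Mt1 and Mt3. Gstm1, a glutathione transferase gene, had 1346, 969 and 1601 FPKM in NR libraries and 656, 1929 and 1292 in Run. Prdx6, a peroxiredoxin gene, had 1282, 430 and 1037 in NR libraries and 706, 1314 and 1519 in Run. Gstm5, with close paralogs among the Gstm genes, had 713, 606 and 946 in NR libraries and 595, 1139 and 505 in Run. Their differences of -0.12 ± 0.42, 0.43 ± 0.49 and -0.09 ± 0.38 (SE) were within the spread between libraries (limma adjusted p = 0.983, 0.978 and 0.985).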

How the data were processed

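RNA of tdTomato+ cells was amplified by Smart-seq2 in 6 libraries, 3 NR and 3 Run, grouped by their titles. The authors deposited FPKM values, 1 column per library. The labels list Trimmomatic 0.39, STAR 2.7.5c, StringTie 2.1.7, DESeq2, edgeR and mm10 per the submitters' processing notes, without their roles, and the annotation and the tool behind the FPKM are not given in the sources used here. FPKM hold no read totals, so the depth is unknown. Of the symbols, 53289 (96.2%) were in GENCODE M21, the source of gene coordinates and coding sequences. Upstream sequences are from RefSeq (GRCm38.p6), which matched all 3 members.

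Here log2(FPKM + 1) was compared with limma 3.58.1 under R 4.3.3 (trend over mean level, 2-sided, no block) over genes that reached FPKM 1 in 3 or more libraries, adjusted by Benjamini-Hochberg with a threshold of 0.05. On data simulated over all tested genes with the libraries' own spread per gene, the fit recovered few of the changed genes. A missing call therefore says little. A simulation with a constant spread taken from abundant genes is not reported here. Recovery was not computed for the members alone, whose residual SD lay below the median of abundant genes. Sums, ratios and correlations used exact permutation tests over libraries. Alternatives were the pseudocount (0.1, 10), the filter, the trend, scaling, a replicate block and leaving out each library. Other steps ran in Python 3.11.15 with scipy 1.17.1, numpy 2.4.6, matplotlib 3.10.9 and pandas 2.3.3. The members and lists were chosen with earlier results of these data known. Named are the 3 members, Mt4, Mtf1, the 3 genes with the highest mean FPKM of each pathway list and of the astrocyte list, and the 5 genes most correlated with each member; the text marks genes named outside this rule.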

Additional observations from a re-analysis of the deposited data

How the results depend on the processing

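The limma adjusted p of Mt1, Mt2 and Mt3 stayed at 0.835 or above under all 14 alternatives, and the count of genes passing the adjusted threshold was 0 in each. Leaving out 1 library gave Run minus NR from -0.35 to 0.44 for Mt1, from -0.24 to 0.43 for Mt2 and from -0.54 to 0.12 for Mt3. It gave -0.38 to 0.32 for the log2 sum, -0.10 to 0.14 for log2 Mt1/Mt2, -0.0824 to 0.67 for log2 Mt1/Mt3 and -0.0155 to 0.76 for log2 Mt2/Mt3. Quantile normalization turned the sum to 0.0017, from -0.00021. With FPKM of at least 1 required in all 6 libraries, 82 of 1751 genes had an unadjusted p under 0.05, in place of 304 of 6155, fewer genes being tested, and 404 of 17361 without a filter. Without NR replicate 2, 227 of those genes were higher and 138 lower in Run, against 151 and 153 with all libraries.

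The correlation of Mt1 with Mt2 kept an unadjusted exact permutation p of 0.0417 or below under all 11 alternatives. Adjustment over the family of 9 correlations was made in the main setting only, so these values do not show that the adjusted call held. For Mt1 with the glucocorticoid-induced level, r was 0.879 in the main setting (exact permutation p = 0.0389, adjusted p = 0.117). Values were lower with a pseudocount of 0.1 (0.663), after rescaling libraries to 1 total (0.821) and over the 7 genes at FPKM 1 or more (0.725). Their unadjusted exact permutation p was 0.133, 0.0681 and 0.144. Higher values came with a pseudocount of 10 (0.965, unadjusted exact permutation p = 0.00278) and quantile normalization (0.927, unadjusted exact permutation p = 0.0167). Without 1 library r was 0.520 to 0.983. For Mt2 with that level, r was 0.472 over those 7 genes, and 0.861 to 0.979 without 1 library. It was 0.830 and 0.857 with pseudocounts of 0.1 and 10, 0.913 after rescaling and 0.938 after quantile normalization. The cause of these changes was not tested.

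Libraries with the same replicate number shared little: their deviations from the group means correlated at 0.0211, 0.00416 and 0.0179 over 6155 genes. Each library correlated best with its own number, but the values of all pairs lay between -0.0190 and 0.0211. The design states no pairing, and whether libraries were paired was not tested. A replicate block left differences of 0.09, 0.10 and -0.24 for Mt1, Mt2 and Mt3 (limma adjusted p = 0.984, 0.984 and 0.967) and 251 genes at an unadjusted p under 0.05, in place of 304. With no read totals, the depth behind each value is unknown.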
